A study of Homo sapiens with 4 samples.

Results

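Expression of 9 transcription factor genes that set cell identity in the mammary epithelium was examined in SUM149PT cells: TP63, GATA3, ESR1, FOXA1, ELF5, SOX9, FOXC1, KLF5 and TFAP2C. They were chosen by name, and all 9 had a row among the 25343 genes of the deposited table. SUM149PT is a line from an inflammatory breast cancer, and it was cultured with serum, insulin and hydrocortisone. There were 2 groups of 2 libraries, both from SUM149PT cells stably infected with a lentivirus: the vector control, which carried a control shRNA construct, and the EMP2 knockdown, which carried a short hairpin RNA (shRNA) against EMP2. Both knockdown libraries carry the same construct name in the labels, so they stand for 1 hairpin. The labels do not state whether a group's libraries came from separate cultures, and p-values therefore describe the spread of these samples alone, which may be technical. EMP2 is a small membrane protein, and the title of the series concerns it as a target in breast cancer stem cells.

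Milk ducts are lined by an inner layer of luminal cells and an outer layer of basal, myoepithelial cells. In luminal cells GATA3, FOXA1 and the oestrogen receptor ESR1 act on many of the same regulatory regions, with FOXA1 opening chromatin for the receptor. p63, the product of TP63, maintains the basal layer of stratified and glandular epithelia. ELF5 directs the alveolar cells that make milk, and SOX9 and FOXC1 are typical of luminal progenitors, of basal cells and of basal-like tumours.

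The values are CPM, reads scaled to a common library total, to which the authors applied the trimmed mean of M values (TMM). The libraries held 13360907 to 14647053 reads, recovered from the CPM values, and 3 reads, taken as the upper limit for a count of 0, came to 0.208 to 0.227 CPM. EMP2 stood at 126.1 and 124.6 CPM under the vector control, against 23.0 and 22.6 CPM under knockdown (limma, log2 difference -2.43, adjusted p = 3.7e-15). All 6 epithelial markers were above 1 CPM, with a summed level of 2899 and 2934 CPM under the vector control, against 3317 and 3324 CPM under knockdown. Of 7 fibroblast markers 3 exceeded 1 CPM in any library (sums 129.7 to 130.6 and 120.8 to 123.2 CPM), with COL1A2 at 0 throughout. These 3 did not move together: DCN was at 75.4 and 70.0 CPM under the vector control, against 42.7 and 40.8 CPM under knockdown, FAP at 16.3 and 15.5 against 33.6 and 36.0 CPM, and COL1A1 at 38.6 and 43.8 against 44.1 and 46.4 CPM. Of 6 leukocyte markers 3 did (88.5 to 92.8 and 66.8 to 70.1 CPM, nearly all from CD68), with CD3E at 0 throughout; of 4 endothelial markers 1 did (2.50 to 2.91 and 2.32 to 2.44 CPM) and of 3 adipocyte markers 0 did (1.51 to 2.01 and 1.42 to 2.22 CPM). Their part in the results was not tested.

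The knockdown cells had less mRNA of the basal factor TP63 and of the luminal factor GATA3, and more of ESR1. SOX9 and KLF5 were lower by small amounts and FOXC1 was higher. FOXA1 and TFAP2C did not pass the test, and ELF5 was too low to be tested. In the fit across 13661 genes 4 of the 8 tested factors were called lower and 2 higher at an adjusted p under 0.05 (limma with Benjamini-Hochberg adjustment). These 6 of 8 stand beside 33.4% of all tested genes, of which 16.8% were lower and 16.6% higher. With edgeR 6 of the 8 were called beside 33% of all genes, and with DESeq2 5 beside 15.9%. A call with a change of at least 1.5-fold was made for TP63 and GATA3 on the lower side, beside 2.93% of all tested genes, and for ESR1 on the higher side, beside 2.9%. The median log2 change of the 8 was -0.16, and that of all tested genes was 0.0037. In all 8 the libraries of the 2 groups did not overlap, as in 65.6% of the tested genes. A lower level in bulk RNA can come from fewer cells that express a gene or from less RNA per cell, and these cannot be told apart here.

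**Figure D1:**
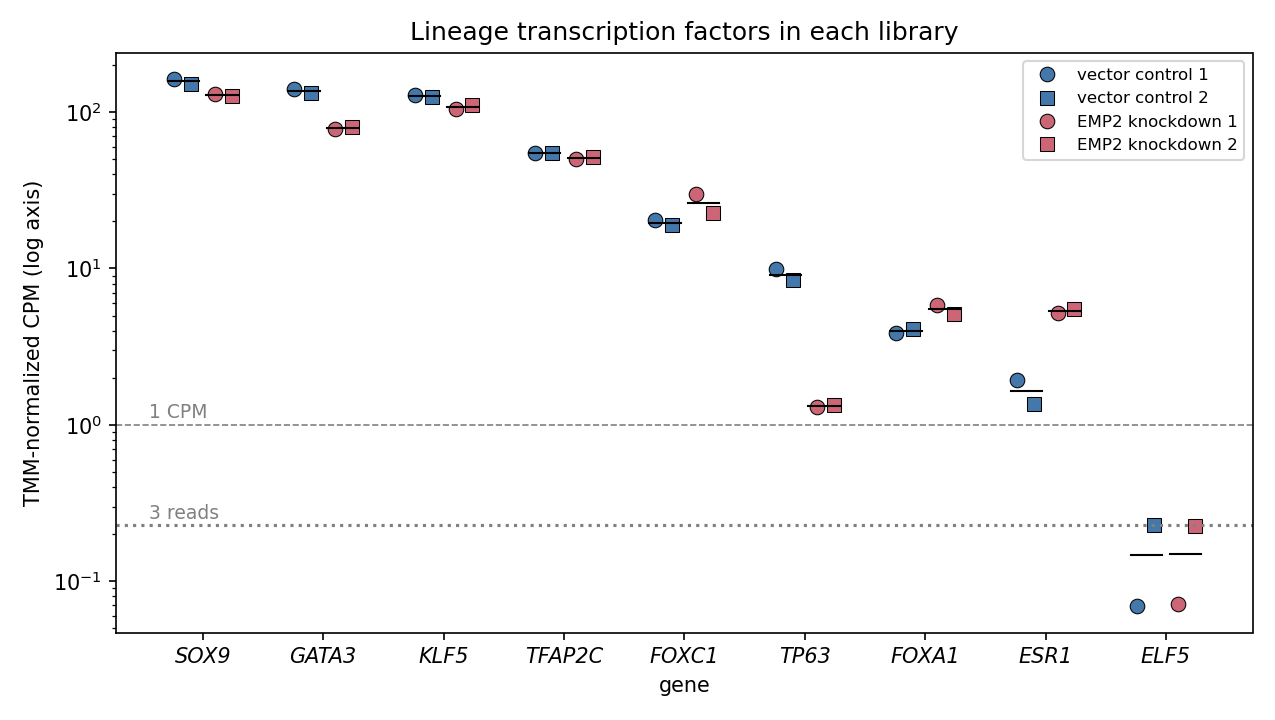
TMM-normalized CPM of the 9 genes in each of the 4 libraries, on a log axis; circles and squares are the libraries numbered 1 and 2, short bars are group means of 2 libraries, the dashed line is 1 CPM and the dotted line is the CPM of 3 reads. TP63 drops from 9.89 and 8.41 CPM to 1.29 and 1.35 CPM, ESR1 rises from 1.94 and 1.36 CPM to 5.17 and 5.47 CPM, and ELF5 lies at or below 3 reads in every library.

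The sequences before 4 of the genes are shown because they belong to the genes with the largest changes in each direction, together with FOXC1. They are RefSeq windows (GRCh38.p14), of which the 200 bases ending 51 bases before the annotated start are printed 5′ to 3′. Capitals mark GC boxes, GGGCGG or its complement CCGCCC, the type of site that KLF and Sp proteins recognise. All 4 lie on the plus strand, TP63 at chr3:189631139-189631338, GATA3 at chr10:8054438-8054637, ESR1 at chr6:151806946-151807145 and FOXC1 at chr6:1609665-1609864. RefSeq has 6 windows each for GATA3 and ESR1; the one shown is the most downstream that lies near a principal GENCODE start and holds no coding-transcript exon of the gene.
TP63: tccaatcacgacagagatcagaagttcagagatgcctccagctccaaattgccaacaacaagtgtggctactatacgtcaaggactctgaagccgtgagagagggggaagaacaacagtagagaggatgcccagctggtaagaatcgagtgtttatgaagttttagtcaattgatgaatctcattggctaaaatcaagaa
GATA3: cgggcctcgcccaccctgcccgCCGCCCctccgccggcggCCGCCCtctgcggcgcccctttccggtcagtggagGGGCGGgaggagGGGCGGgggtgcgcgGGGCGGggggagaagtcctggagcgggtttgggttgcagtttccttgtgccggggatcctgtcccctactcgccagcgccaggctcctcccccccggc
ESR1: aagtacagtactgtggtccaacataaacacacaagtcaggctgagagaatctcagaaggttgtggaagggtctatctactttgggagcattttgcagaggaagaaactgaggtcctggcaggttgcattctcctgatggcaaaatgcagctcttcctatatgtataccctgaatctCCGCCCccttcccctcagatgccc
FOXC1: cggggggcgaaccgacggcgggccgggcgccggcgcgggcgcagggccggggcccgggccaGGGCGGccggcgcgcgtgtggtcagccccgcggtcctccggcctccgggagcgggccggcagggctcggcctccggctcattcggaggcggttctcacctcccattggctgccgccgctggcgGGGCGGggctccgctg

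The GATA3 window holds 5 GC boxes, that of FOXC1 2, that of ESR1 1 and that of TP63 0, against 35% of 35116 RefSeq windows of this length with at least 1. The GC content is 77.5% for GATA3 and 83.5% for FOXC1, with 21 and 33 CpG dinucleotides, and 44.0% for TP63 and 48.5% for ESR1, with 4 and 1; the median of all windows is 57.5% and 8. Within these 4 genes, 1 GC-rich and 1 GC-poor window belong to a gene that fell, and likewise to a gene that rose. In both strands 7 other motifs were searched, with the share of all windows that hold each: CATG, the core of the p63 site (41.6%), GATAA for GATA proteins (17.4%), TGTTTAC for forkhead proteins (2.35%), GGTCA for the oestrogen receptor (27.1%), ACAAT for SOX proteins (21.2%), GCCNNNGGC for AP-2 proteins (15.7%) and CGGAAG for ETS proteins (11.5%). The TP63 and ESR1 windows held 0 of the 7, and the GATA3 and FOXC1 windows both held GGTCA and GCCNNNGGC. A match or its lack describes these letters in this window and says nothing of binding. RefSeq windows matched 7 of the 9 members; SOX9 and TFAP2C had none. The table gives 1 value per gene, so starts cannot be told apart. In GENCODE v29 the coding transcripts of TP63 begin at 5 positions spread over 158374 bases, the long and the N-terminally shortened p63 forms among them. Those of ESR1 begin at 7 positions. The 1 TP63 window lies before the most upstream of its 5 positions, so its letters and GC content do not describe the later starts. Which start the cells use was not tested.

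Among the factors of the basal layer, TP63 showed the largest change of the 9. It lies on chromosome 3 from 189631416 to 189897279, plus strand (GENCODE v29, GRCh38). It stood at 9.89 and 8.41 CPM under the vector control, against 1.29 and 1.35 CPM under knockdown, from 143 and 111 reads and from 18 and 18 reads. Both knockdown libraries lay far below both controls, and they remained above the level of 3 reads. The means were 9.15 ± 1.05 CPM and 1.32 ± 0.0403 CPM (± SD, n = 2), so that 14.4% of the control level remained. On the log2(CPM + 0.5) scale, which understates changes of low genes, the difference was -2.40, with an SE of 0.18 and a 95% confidence interval of -2.79 to -2.02 (limma adjusted p = 2.81e-08). Only 5 of the 13661 tested genes had a lower fitted change.

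FOXC1, a forkhead factor of chromosome 6 that is typical of basal-like breast cancer, was at 20.3 and 18.9 CPM under the vector control, against 30.1 and 22.6 CPM under knockdown. Both knockdowns were above both controls, but knockdown library 1 was well above the other. The means were 19.6 ± 0.993 and 26.4 ± 5.31 CPM (SD, n = 2), a log2 change of 0.40 (SE 0.11, limma adjusted p = 0.00737). That rise rests on knockdown library 1: without it the change was 0.20 (limma adjusted p = 0.168), and without knockdown library 2 it was 0.61. The call was also lost with DESeq2 (adjusted p = 0.0592) and, in limma, without the abundance trend (adjusted p = 0.169) or without a filter on low values (adjusted p = 0.0505).

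SOX9, an HMG-box factor of progenitor cells on chromosome 17, stood at 162.1 and 152.4 CPM under the vector control, against 130.7 and 126.0 CPM under knockdown. The fall was small beside those of TP63 and GATA3 but larger than the spread within the groups, with means of 157.3 ± 6.81 and 128.4 ± 3.34 CPM (SD, n = 2) and a log2 change of -0.29 (SE 0.039, limma adjusted p = 2.04e-05). Without the abundance trend in limma the call was lost (adjusted p = 0.0516).

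Of the luminal factors, GATA3, the zinc-finger factor that luminal differentiation requires in mice, was lower. It lies on chromosome 10 from 8045378 to 8075203, plus strand. It stood at 139.6 and 133.3 CPM under the vector control, against 78.1 and 79.9 CPM under knockdown. The groups were widely separated for their spread, with means of 136.4 ± 4.46 CPM and 79.0 ± 1.27 CPM (± SD, n = 2), so that 57.9% of the control level remained. Its log2 difference was -0.78 (SE of 0.041, a 95% confidence interval of -0.87 to -0.70, limma adjusted p = 2.61e-10).

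ESR1, the oestrogen receptor gene, moved the other way from a low level. It lies on chromosome 6 from 151656691 to 152129619, plus strand. It stood at 1.94 and 1.36 CPM under the vector control, from 28 and 18 reads, against 5.17 and 5.47 CPM under knockdown, from 72 and 73 reads. Both knockdown libraries were above both controls, and all 4 were above 1 CPM. The mean rose 3.22-fold, from 1.65 ± 0.406 to 5.32 ± 0.214 CPM (SD, n = 2), a log2 difference of 1.45 (SE of 0.20, a 95% confidence interval of 1.02 to 1.88, limma adjusted p = 3.41e-05). It ranked 31 from the top of the 13661 fitted changes.

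FOXA1, the forkhead factor that accompanies the receptor, was at 3.87 and 4.09 CPM under the vector control, against 5.88 and 5.09 CPM under knockdown. Both knockdowns were above both controls, but the log2 change of 0.42 did not pass the test (95% confidence interval 0.066 to 0.76, limma adjusted p = 0.0638). The interval is that of the single gene, and FOXA1 rests on 54 to 82 reads per library.

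**Figure D2:**
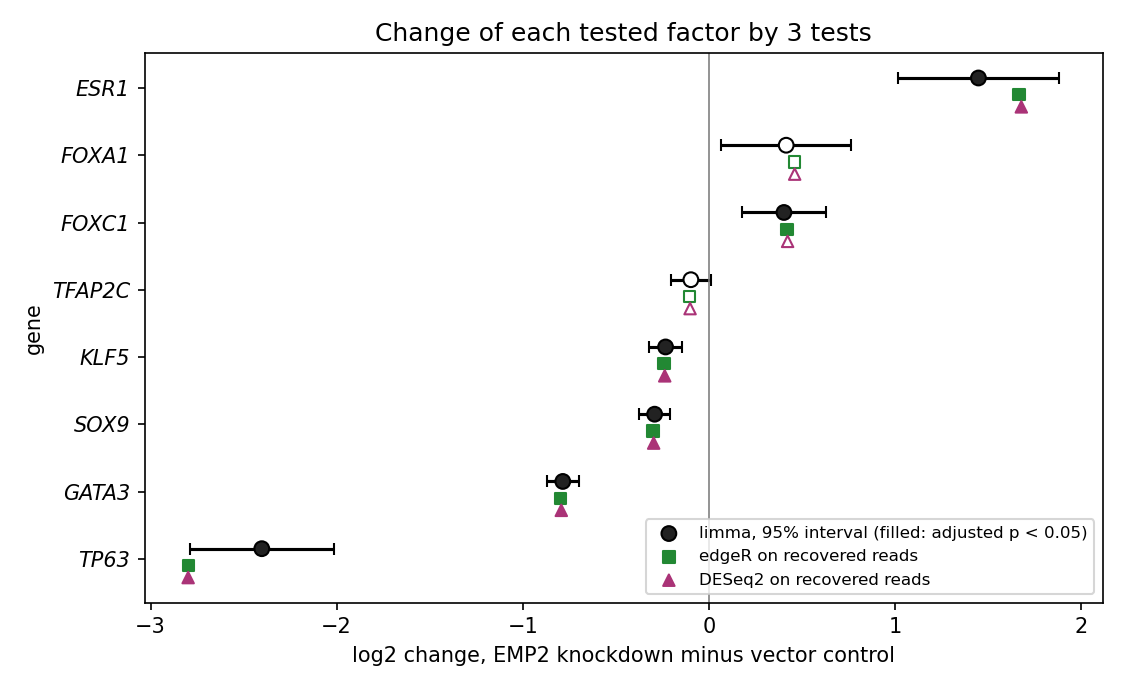
Log2 change of the 8 tested factors, knockdown minus control, by limma on log2(CPM + 0.5) with 95% confidence intervals and by edgeR and DESeq2 on the recovered reads; filled symbols have an adjusted p under 0.05. TP63 and GATA3 lie on the lower side and ESR1 on the higher side, filled by all 3 tests, FOXC1 is open by DESeq2, and FOXA1 and TFAP2C are open by all 3.

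KLF5, a zinc-finger factor that promotes growth of epithelial cells, was at 129.1 and 124.7 CPM under the vector control, against 104.5 and 111.5 CPM under knockdown. The groups did not overlap, but the fall of 0.23 on the log2 scale was the smallest of the called changes (SE 0.041, limma adjusted p = 0.000342; means 126.9 ± 3.08 and 108.0 ± 4.95 CPM, SD, n = 2). Without the abundance trend in limma that call was lost too (adjusted p = 0.0754). TFAP2C, the AP-2 gamma factor of luminal cells and of many breast cancers, was at 54.4 and 54.8 CPM under the vector control, against 50.4 and 51.7 CPM under knockdown. Its difference of -0.097 on the log2 scale did not pass (95% confidence interval -0.21 to 0.012, limma adjusted p = 0.167). The alveolar factor ELF5 had 1 and 3 reads under the vector control, and likewise 1 and 3 reads under knockdown, 0.0692 to 0.227 CPM, so it is reported as low. Both groups were at or under 3 reads per library, and a difference was not detectable at this depth.

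**Figure D3:**
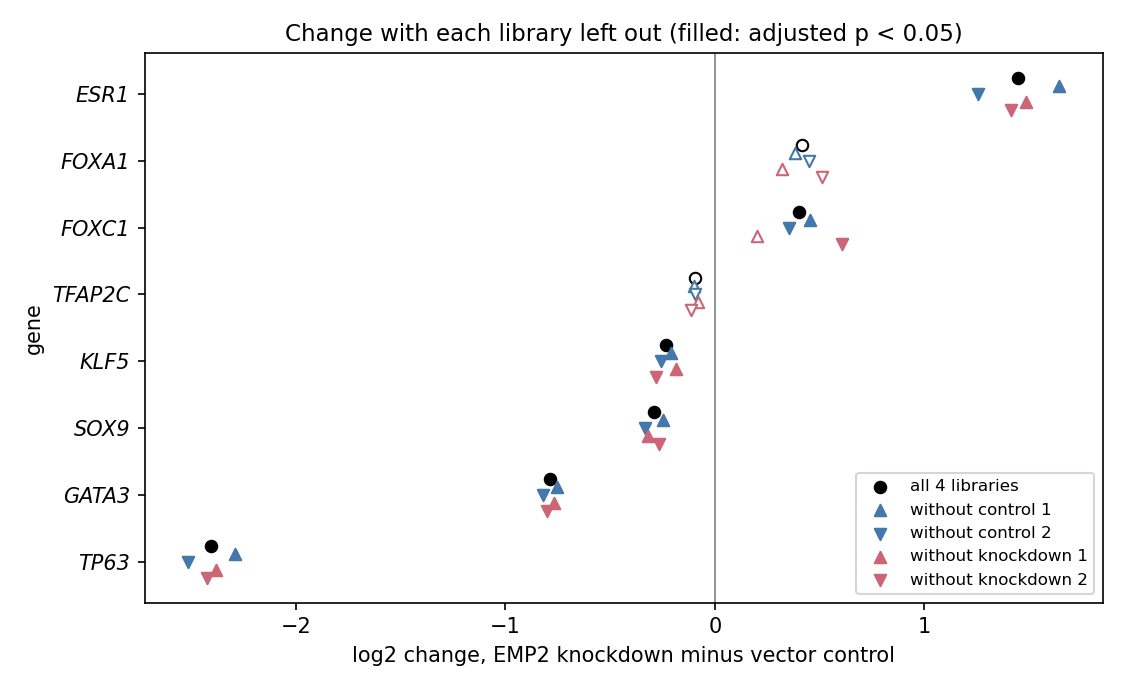
Log2 change of the 8 tested factors with all 4 libraries and with each library left out in turn; filled symbols have a limma adjusted p under 0.05. FOXC1 loses its call without knockdown library 1 and the other 5 called factors remain filled; a lone library is assumed to vary like the other group.

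Divided by the merged exon length of coding transcripts in GENCODE v29, the levels fell into clear tiers. In both controls GATA3 was highest, at 44.7 and 42.7 CPM per kb, followed by SOX9 at 41.2 and 38.7 and KLF5 at 34.4 and 33.3 CPM per kb. The libraries of GATA3 and SOX9 did not overlap, but the lower of GATA3 and the higher of SOX9 lay close together. TFAP2C followed at 19.0 and 19.1 and FOXC1 at 5.18 and 4.82 CPM per kb. TP63, at 1.52 and 1.29, and FOXA1, at 1.35 and 1.43 CPM per kb, overlapped, and ESR1, at 0.151 and 0.106, and ELF5, at 0.0155 and 0.0509 CPM per kb, were last.

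In both knockdowns the order was SOX9 (33.2 and 32 CPM per kb), KLF5 (27.9 and 29.7), GATA3 (25 and 25.6), TFAP2C, FOXC1, FOXA1, ESR1, TP63 and ELF5. GATA3 thus went from rank 1 to rank 3, and ESR1 (0.402 and 0.425 CPM per kb) stood above TP63 (0.198 and 0.207), the reverse of the controls. With the longest coding transcript as the length the order in the knockdowns was unchanged. In the controls TP63 then ranked 6 and FOXA1 7 in both libraries, with means of 1.86 and 1.39 CPM per kb, whereas with merged exons their order was reversed in control library 2. These lengths do not say which transcripts the cells use.

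**Figure D4:**
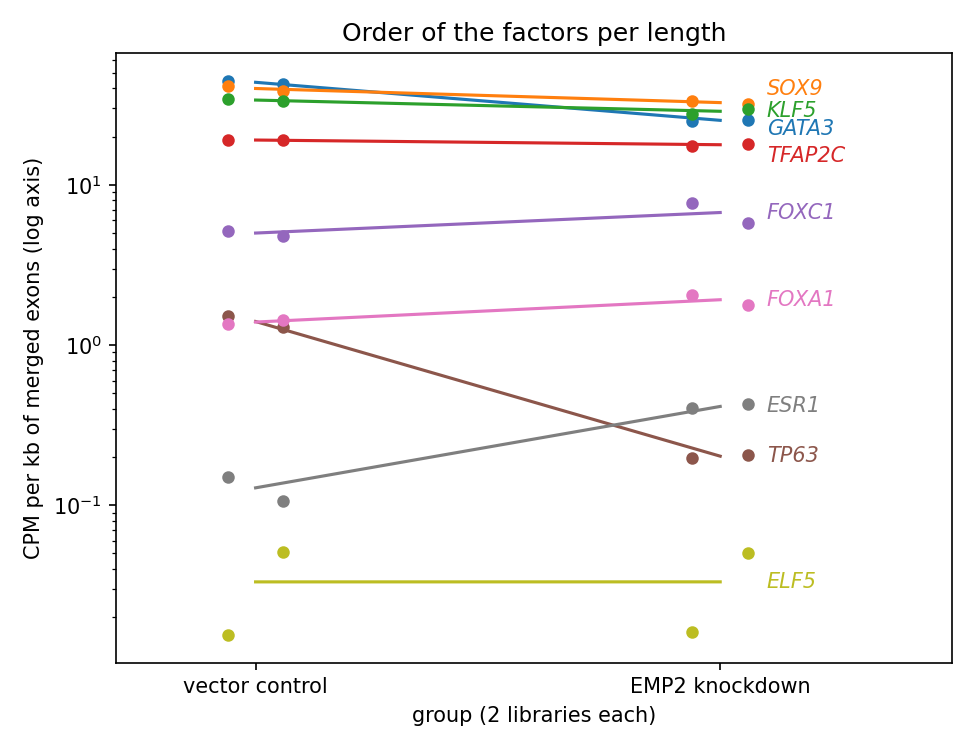
CPM per kb of merged coding-transcript exons for the 9 genes, on a log axis; points are libraries and lines join the means of the 2 libraries of each group. The lines of TP63 and ESR1 cross, and GATA3 drops below SOX9 and KLF5 in the knockdown.

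To find the tested genes most like each called factor that averaged at least 5 CPM, which leaves out ESR1, distances were taken over the 4 libraries between log2(CPM + 0.5) values set against each gene's control mean, among 11089 other genes that averaged 5 CPM or more. The genes nearest to TP63 were EMP2 (distance 0.16), IFI6 (0.36) and NDRG1 (0.52), and EMP2 was the only gene within 0.2. On that scale the log2 changes of TP63 and EMP2 were -2.40 and -2.43. With 0.1 CPM added in place of 0.5 they were -2.70 and -2.45, and with edgeR -2.79 and -2.46. Their closeness thus depends partly on the value added. Nearest to GATA3 were EPB41L4A, KCNAB2 and TIMP1, all within 0.046, with 88 genes within 0.2. Nearest to SOX9 were LINC01139, BCKDK and C14orf142, nearest to KLF5 SPTLC2, GLTP and LPHN2, and nearest to FOXC1 PLEKHN1, SLC2A11 and TMEM17. Within 0.2 of SOX9 lay 1347 genes, of KLF5 1939 and of FOXC1 38, so the small changes of SOX9 and KLF5 were shared by many genes. With 4 libraries in 2 groups, likeness reflects mainly the size of the change.

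The nearest coding genes on both sides of the factors were read as a check of their regions, by a rule set after the factors' values were seen. Of 18 such neighbours 11 were tested. Of the 10 that passed the filter through both groups 1 was lower, 1 was higher and 8 did not pass. Among all tested genes 16.8% were lower and 16.6% higher. TPRG1, which lies 306.1 kb to the left of TP63, had 20 and 22 reads under the vector control, against 0 and 0 under knockdown, 1.38 and 1.67 CPM against a limit of 3 reads per library, so it was at least 6.93-fold lower. It passed the filter through the controls alone, so it had to differ and no p is given. LEPREL1 (P3H2), on the other side of TP63, was at 18.5 and 17 CPM and at 17.2 and 19.0 CPM (log2 change 0.031, limma adjusted p = 0.832). CAT, the catalase gene beside ELF5, fell by 0.30 on the log2 scale, and FOXF2, beside FOXC1, rose by 0.17 (limma adjusted p = 0.044). GATA3-AS1, whose 5′ end faces that of GATA3, was at 1.66 and 1.51 CPM and at 1.08 and 0.899 CPM (log2 change -0.49, limma adjusted p = 0.172). In GENCODE v29 the coding exons of the 9 factors share no base with an exon on the opposite strand.

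Counts in the lists of companion genes stand beside the 16.6% of all tested genes that were called higher and the 16.8% called lower. Of 24 tested relatives of the factors by family 6 were higher, 6 lower and 12 did not pass. Their log2 changes had a median of -0.024 and ranged from -0.48 to 0.61. The 6 higher became 2 without control library 2, 3 without knockdown library 2 and 0 with DESeq2. Beside ESR1, the second oestrogen receptor ESR2 was at 0.761 and 0.833 CPM under the vector control, against 1.43 and 1.20 CPM under knockdown. ESR2 entered the fit through the knockdowns alone, which favours a difference, so no p is given, and it was not called. Without ESR2 23 relatives remain, 6 higher and 6 lower, with a median of -0.049. ESRRA, an orphan receptor of mitochondrial metabolism, fell by 0.41 on the log2 scale. Beside GATA3, GATA6 rose from 5.84 ± 0.444 to 9.25 ± 1.53 CPM (± SD, n = 2, log2 difference 0.61, limma adjusted p = 0.00371). GATA2 did not pass, at 26.4 and 29.5 CPM under the vector control, against 27.3 and 28.6 CPM under knockdown (log2 change 0.0035). Beside TP63, TP73 had at most 0.430 CPM.

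The epithelial ETS factor ELF3 fell from 109.5 ± 4.29 to 78.4 ± 2.43 CPM (± SD, n = 2, log2 difference -0.48) and ELF1 rose by 0.17. TFAP2A, which often acts beside TFAP2C, fell by 0.19. Of the SOX genes SOX4 and SOX12 were called lower, at -0.17 and -0.20, and SOX7 was at -0.049. Of the forkhead genes FOXO1 fell by 0.35 and FOXO3 rose by 0.15, while FOXQ1 (-0.43), FOXD1 (-0.078) and FOXM1 (0.00072) did not pass. Of the KLF genes KLF10 and KLF6 rose by 0.22 and 0.18, and KLF2 (0.54), KLF4 (0.26) and KLF3 (-0.056) did not pass.

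Other regulators of the mammary lineages went both ways: of 26 tested, 8 were higher and 5 lower, with a median of 0.029; DESeq2 gave 5 and 4. TRPS1, a GATA-type factor of the breast, fell from 175.5 ± 6.21 to 118.2 ± 2.57 CPM (± SD, n = 2, log2 difference -0.57). CEBPB, which alveolar growth requires in mice, fell by 0.42, NFIB fell by 0.41, and ID4, an inhibitor of helix-loop-helix factors in basal cells, fell by 0.69. RUNX1 rose from 108.1 ± 4.64 to 149.1 ± 0.197 CPM (± SD, n = 2, log2 difference 0.46) and the Hippo pathway effector YAP1 by 0.26. Of 15 tested cofactors and ubiquitin ligases of the factors 6 were higher and 0 lower with limma, with a median of 0.071. The same counts came from edgeR, DESeq2 gave 1 and 0, and 2 were lower at an unadjusted limma p under 0.05. The 6 higher became 3 without control library 2 and 2 without knockdown library 2, and 1 was lower without control library 2 or without knockdown library 1. The coactivators NCOA1 and NCOA2, which bind nuclear receptors, rose by 0.30 and 0.20, CREBBP by 0.12, and the ligases ITCH, which targets p63, and FBXW7, which targets KLF5 among others, by 0.14 and 0.22.

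Known p63 targets of epithelium went both ways: of 21 tested, 9 were higher and 9 lower, with a median of 0.036. DESeq2 gave 5 and 9. Neither this list nor that of oestrogen receptor targets records whether the factor raises or lowers a gene. These counts therefore do not test the activity of the factors. The 9 higher include FAT2, which passed the filter through the knockdowns alone; without it 20 remain, 8 higher and 9 lower, with a median of -0.0087. Among those that fell, the hemidesmosome collagen COL17A1 went from 14.1 ± 0.445 to 7.11 ± 0.198 CPM and the basal keratin KRT14 from 18.9 ± 1.82 to 8.77 ± 1.39 CPM (± SD, n = 2, log2 differences of -0.95 and -1.07), whereas KRT5, the partner of KRT14, was at 919.2 ± 11.4 and 949.5 ± 11.8 CPM (± SD, n = 2, limma adjusted p = 0.125). On the log2 scale IGFBP3, a binding protein of insulin-like growth factors, fell by 2.70, the integrin chain ITGA6 fell by 0.77, EGFR fell by 0.63 and the integrin chain ITGA3 fell by 0.29. The laminin chain LAMA3 rose by 0.73 and the Notch ligands JAG1 and JAG2 by 0.62 and 0.87.

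Oestrogen receptor targets were split too: of 13 tested, 4 were higher and 5 lower, with a median of -0.20, and PGR, TFF1, TFF3 and AGR3, 4 of the 6 that were not tested, had at most 1 read in any library. GREB1, a target induced in receptor-positive cells, was at 3.39 and 3.18 CPM under the vector control, against 2.80 and 2.997 CPM under knockdown (log2 change -0.16, limma adjusted p = 0.578). CA12 fell by 1.69, AGR2 fell by 1.05, the growth factor AREG fell by 0.42 and RARA fell by 0.33, and CCND1, the gene of cyclin D1, rose by 0.46 and IGFBP4 by 0.55.

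Of 14 luminal markers KIT, PROM1, CLDN3 and LTF were under 1 CPM in every library and were not tested. The 10 tested were mostly higher, with 7 called higher, 2 lower and a median of 0.20. Among them MUC1, a mucin, rose by 0.25, and CLDN4, a tight junction gene, by 0.76. SLPI, a protease inhibitor, and KRT19 differed by -0.58 and -0.17, both called lower. KRT8, KRT7 and CD24 rose by 0.23, 0.21 and 1.05. Of 17 basal and myoepithelial markers CNN1, MYH11, OXTR, NGFR and THY1 were under 1 CPM in every library and were not tested. Of the 12 tested, 4 were higher and 5 lower, with a median of -0.23. KRT15, VIM and CAV1 were called lower, at -1.06, -0.41 and -0.27, and CDH3, TAGLN and KRT17 rose by 0.47, 2.39 and 0.31. TAGLN stood at 1.87 and 1.89 CPM under the vector control, against 11.05 and 13.03 CPM under knockdown. MYLK also rose, by 0.69, whereas ACTA2, at -0.38, did not pass (limma adjusted p = 0.263). Of 10 milk and alveolar genes 2 could be tested; FOLR1, the folate receptor, fell by 0.65, a call lost without knockdown library 2, and XDH was at -0.24, and the caseins CSN1S1, CSN2 and CSN3 and LALBA were at 0 in every library.

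**Figure D5:**
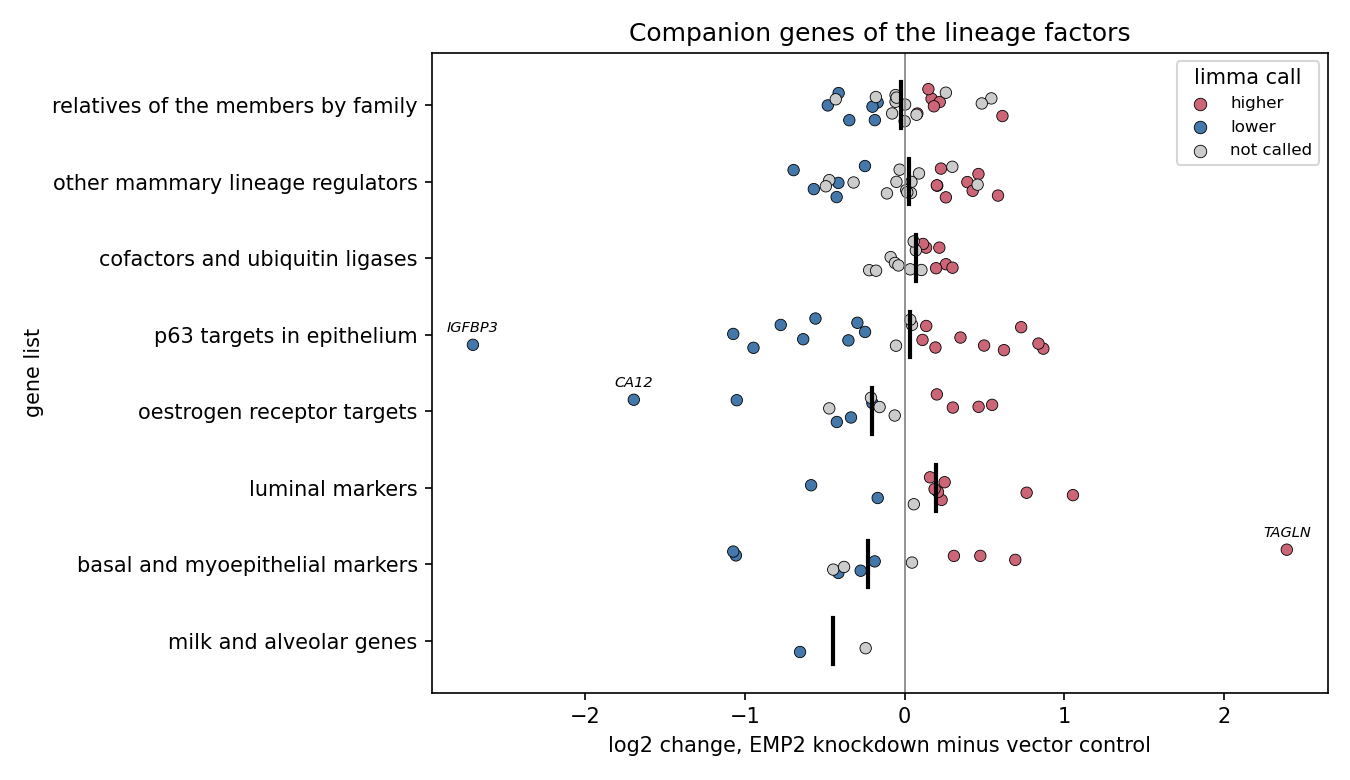
Log2 change of every tested gene in 8 lists of companions of the lineage factors, coloured by the limma call (adjusted p under 0.05); thick bars are list medians and genes beyond 1.1 are labelled. Called genes lie on both sides of 0 in the lists of p63 targets, with 9 higher and 9 lower, and of oestrogen receptor targets, with 4 higher and 5 lower.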

How the data were processed

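RNA of 4 SUM149PT libraries was depleted of ribosomal RNA and sequenced as single reads, per the labels' protocols. GRCh38, STAR, DESeq2 and bcl2fastq 2.17 are named in the submitters' processing notes; no source used here gives the counter, its annotation or its strand setting. The deposited table holds CPM values that the authors scaled by TMM. All values (100%) were whole multiples of 1 read to within 0.1 read, so reads were recovered; library totals rest on the genes of the table. The limit of 3 reads covers counting error only.

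Values were tested as log2(CPM + 0.5) by limma 3.58.1 (R 4.3.3), two-sided, with group as the single term and a trend on abundance. The 13661 genes tested reached 1 CPM in 2 or more libraries. edgeR 4.0.16 (quasi-likelihood) and DESeq2 1.42.0 on recovered reads were alternatives. Replicates differed by more than counting noise (chi-square of 1.64 and 1.62 per gene), so all 4 were counted. Named companions were up to 6 called genes per list by smallest adjusted p, and the tested relatives in the called factors' families; a few more were chosen after their values were seen. A few genes that this rule names are counted in their lists but not reported here by name. The members and lists were chosen with earlier results of these data known.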

Additional observations from a re-analysis of the deposited data

How the results depend on the processing

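Under 14 alternatives (13 for ESR1 and FOXA1, which a minimum mean of 5 CPM removes) none of the 8 tested factors changed direction. TP63, GATA3 and ESR1 kept their calls under every alternative run, with log2 changes of -2.80 to -2.13, -0.82 to -0.75 and 1.25 to 1.68. Limma without the abundance trend ended the calls of SOX9 (-0.29, adjusted p = 0.0516), KLF5 (-0.23, adjusted p = 0.0754) and FOXC1 (0.40, adjusted p = 0.169), whose adjusted p values over the alternatives ran from 1.16e-07, 4.85e-06 and 3.73e-06. FOXC1 also lost its call with no filter on low values (0.40, adjusted p = 0.0505) and with DESeq2 (0.42, adjusted p = 0.0592), and with each library left out in turn its change ran from 0.20 to 0.61.

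Of all genes, limma without the trend called 916 higher and 1016 lower, and DESeq2 993 and 1181. Of the factors, 1 was called higher with no filter, with a minimum mean of 5 CPM, without the trend and with DESeq2, and 2 lower without the trend; leaving out a library gave 1 to 2 higher. Without the trend the lists gave 1 relative, 3 other regulators, 1 cofactor, 4 p63 targets, 2 oestrogen receptor targets and 4 luminal markers higher, and 3 relatives, 1 luminal marker and 0 milk genes lower. With DESeq2 they gave 0 relatives, 5 other regulators, 1 cofactor and 5 p63 targets higher and 0 milk genes lower. With no filter 3 relatives were higher and 0 milk genes lower, and with quantile scaling 1 luminal marker was lower. Leaving out a library gave 2 to 6 relatives and 2 to 6 cofactors higher, and 0 to 1 cofactors and 0 to 1 milk genes lower. The cause was not tested.

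Deviations of same-numbered libraries correlated at 0.016, so no shared effect of the replicate number was visible. This cannot show whether same-numbered libraries were prepared together. With the replicate number as a block the factors' counts stayed at 2 higher and 4 lower. Depth limits ELF5, at 1 to 3 reads per library, and leaves ESR1 in the controls at 28 and 18 reads.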
